A study of Sus scrofa with 6 samples.

Results

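The cytokines examined here are IL1A, IL1B, IL6, LIF and IL17D, measured in aortic valve leaflets of castrated male and female pigs. They are 5 genes of a set of 6 chosen by name, which also held IL1RN, the antagonist that blocks the IL1 receptor. A probe set counted as a member where the annotation of the array or the supplementary list of significant genes of the study named it for one of these genes. IL1RN had no such probe set and was dropped. The other 5 genes had 7 probe sets, with 2 each for IL1A and IL1B and 1 each for IL6, LIF and IL17D. The array has 24123 probe sets, and its annotation names 6765 genes.

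The leaflets came from 3 castrated male pigs and were compared with those of 3 female pigs, with 1 Affymetrix Porcine Genome Array per pig. All pigs were of mixed breed, 5 months old and about 90 kg in weight, and were healthy. The leaflets were taken out within 5 hours of death, their endothelium was scraped away with a scalpel and they were kept in RNAlater. The males lacked the testicular hormones of an intact animal, so castration and sex cannot be told apart, and the leaflets were whole tissue rather than isolated valvular interstitial cells (VICs). Values are log2 expression values from RMA, which corrects the background, sets all arrays to one distribution and sums up the probes of a probe set. A difference of 1 on this scale is 2-fold.

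IL1A and IL1B are alarm cytokines that bind the same receptor, IL1R1, and switch on NF-κB through MYD88 and the IRAK kinases. IL6 and LIF bind different receptors that share the signaling chain IL6ST (gp130) and act through JAK kinases and STAT3, with SOCS3 as the feedback inhibitor. IL17D is a less studied secreted member of the IL17 family, whose better known members signal through IL17 receptors and the adaptor TRAF3IP2. In heart valves these pathways are known mainly from inflamed and calcified leaflets, where IL1B and IL6 act on VICs.

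The 6 arrays had medians between 7.33 and 7.38, and 25% of all values lay under 5.52, a level taken here as near the background. The correlation over probe sets was 0.987 to 0.993 within a sex and 0.972 to 0.987 between the sexes. The 4 genes XIST, DDX3Y, EIF1AY and UTY, at 7 probe sets, put every array in the sex of its label. These 7 probe sets were taken from the study's list of significant genes, which was made from these arrays. They are therefore not an independent check of the labels. Markers of VICs and fibroblasts were high in both sexes. Over 8 measured genes, their summed linear signal was 67935 to 78220 in males and 74649 to 87751 in females. Averaged by sex, 7 of these 8 genes were lower in males and 1 was higher. DCN alone did not overlap between the sexes, with every male under every female. None of the 8 was called in the test over all probe sets described below. Endothelial markers were still present after scraping and differed between the sexes. Their summed linear signal over 11 genes was 13096 to 28023 in males and 8487 to 13951 in females. Of the 11, 10 had a higher mean in males and 9 were highest in male replicate 1. The single marker under 5.52 was KDR, at the probe set taken from the array annotation (means 4.36 in males and 4.54 in females). The study reported KDR as upregulated in males, so this probe set does not settle whether KDR was present or differed. In leaflet RNA, fewer cells of a type and less RNA per cell cannot be told apart.

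All 7 cytokine probe sets had a higher mean in males, but only IL17D and LIF were called different, and the spread between animals of one sex varied widely among the cytokines. A probe set was called where limma gave a Benjamini-Hochberg adjusted p under 0.05 and a difference of at least 2-fold. The test was run first on the 23999 probe sets that are not controls (called here over all probe sets) and again after a filter on the coefficient of variation (CV, SD over mean of the 6 values). The study filtered on the CV, but its sources do not state that the highest values were kept or what share, and its supplement speaks of excluding values that differed too much between replicates. Keeping the 10% with the highest CV, 2412 probe sets, is thus a reading chosen here, called the CV filter. With it 183 probe sets were called, as many as the study's list of significant genes holds. An equal count does not show that the filters are the same. That filter favors probe sets on which the sexes differ, so both results are given. IL17D was called over all probe sets, 1 of the 7, where 0.167% of all probe sets were called higher in males. IL17D and LIF were called with the CV filter, which kept all 7, where 4.60% of the kept probe sets were called higher in males. The median log2 fold change (male minus female) of the 7 was 0.87, against -0.01 over all probe sets, of which 49.1% were above 0. The male and female values did not overlap for 4 of the 7, IL1A at both probe sets, LIF and IL17D, where 11.1% of all probe sets were separated in this direction. The IL17D probe set is a member only through the study's list of significant genes, which was made from these arrays. Its share in these counts and in the median is therefore not independent evidence.

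**Figure D1:**
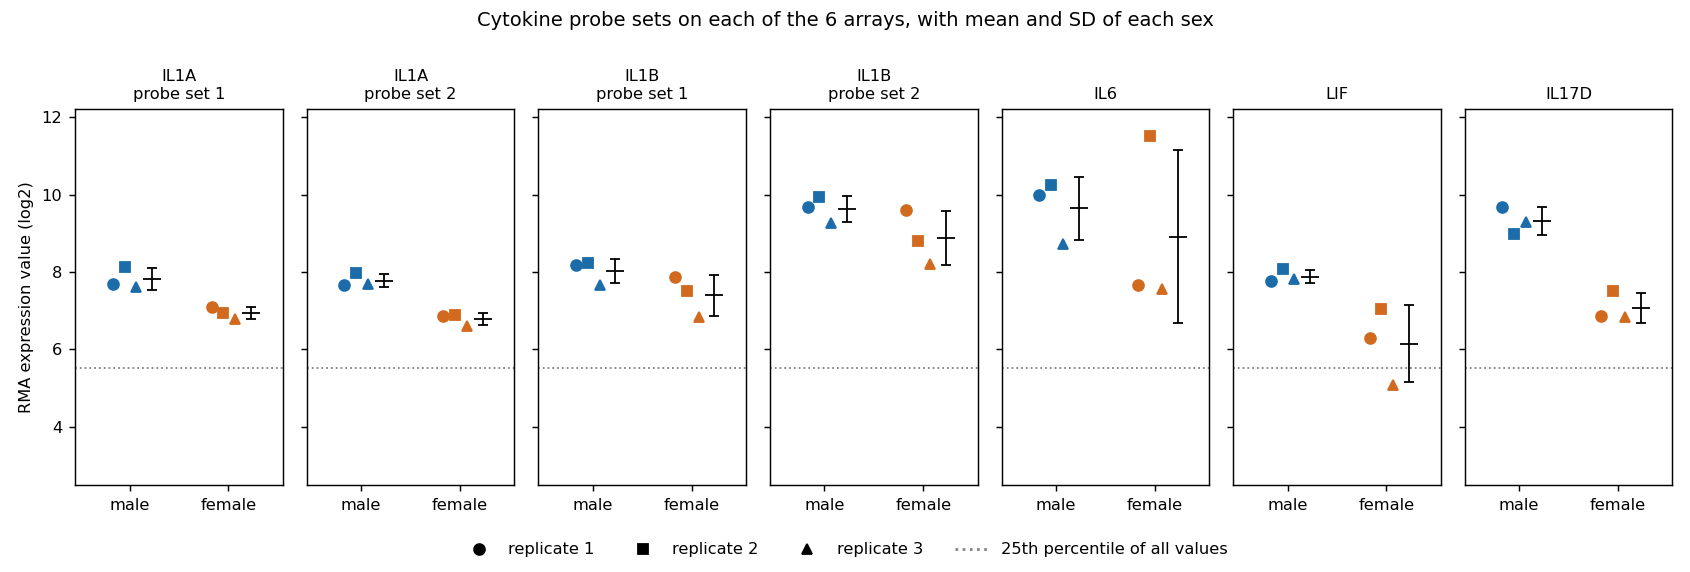
RMA expression values (log2, vertical axis) of the 7 cytokine probe sets on each male (blue) and female (orange) array, with the symbol giving the replicate and the bars showing mean and SD within the sex. IL1A, LIF and IL17D are separated by sex, IL1B overlaps, and IL6 spans 7.57 to 11.50 within the females.

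The IL1 ligands differed by less than 2-fold. The 2 IL1A probe sets, whose precursor protein is active without cleavage, gave nearly the same picture. The first had log2 expression values of 7.70, 8.14 and 7.62 in males (replicates 1, 2 and 3) and 7.11, 6.95 and 6.79 in females. The second had 7.66, 7.97 and 7.69 in males and 6.86, 6.90 and 6.62 in females. At both probe sets every male lay above every female, by at least 0.51 at the first and 0.76 at the second, and male replicate 2 was the highest. The means at the first were 7.82 ± 0.28 in males and 6.95 ± 0.16 in females (SD, n = 3 each), with a log2 fold change of 0.87 (standard error 0.16, 95% interval 0.48 to 1.26, 1.83-fold). For this probe set limma gave an adjusted p of 0.0956 over all probe sets and 0.101 after the CV filter, so it was not called. The second averaged 7.77 ± 0.17 in males and 6.79 ± 0.15 in females (SD, n = 3 each), with a log2 fold change of 0.98 (standard error 0.13, 95% interval 0.67 to 1.29, 1.97-fold). Here limma gave an adjusted p of 0.0443 over all probe sets and 0.0671 with the CV filter. The second probe set thus passed the p limit over all probe sets, as 0.188% of them did toward males, and fell just short of 2-fold. With 1 array left out, it was called without male replicate 3 (log2 fold change 1.02, limma adjusted p = 0.0440), while the p limit was missed in the 5 other cases (0.0894 to 0.163).

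IL1B, which is secreted after its precursor is cut by caspase 1, was higher on average in males but overlapped between the sexes. Its second probe set had log2 expression values of 9.68, 9.93 and 9.26 in males and 9.60, 8.80 and 8.21 in females. The first, which by its name holds probes shared by more than 1 transcript, had 8.17, 8.22 and 7.67 in males and 7.87, 7.50 and 6.83 in females. Female replicate 1 lay among the males at both probe sets, and female replicate 3 was well under all other animals. The log2 fold change was 0.75 at the second probe set (standard error 0.35, 95% interval -0.07 to 1.57, adjusted p = 0.332 from limma over all probe sets). At the first it was 0.62 (standard error 0.28, 95% interval -0.04 to 1.28, adjusted p = 0.320 from the same limma test). Neither was called with the CV filter (limma adjusted p = 0.218 at the second and 0.264 at the first). The size of the difference depended on the females. At the second probe set it was 0.42 without female replicate 3 and 1.11 without female replicate 1. RefSeq places IL1B beside IL1A on the Sscrofa11.1 assembly and lists a second pig gene, IL1B2, so the shared probes of the first probe set leave its gene uncertain.

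The 2 IL6 family ligands differed from each other in how far animals of one sex agreed. LIF, a cytokine known for keeping stem cells undifferentiated, had log2 expression values of 7.76, 8.07 and 7.81 in males and 6.29, 7.05 and 5.08 in females. The males lay close together, all females lay under them by at least 0.71, and female replicate 3 was under the background level of 5.52. Means were 7.88 ± 0.17 in males and 6.14 ± 0.99 in females (SD, n = 3 each), a log2 fold change of 1.74 (95% interval 0.70 to 2.78, 3.34-fold). LIF rose in males with the CV filter (adjusted p = 0.0465 from limma, standard error 0.46) but was not called over all probe sets (adjusted p = 0.156, standard error 0.44). With the CV filter the call was lost without male replicate 1 (adjusted p = 0.0916 from limma), male replicate 2 (0.0945), female replicate 1 (0.0703) or female replicate 3 (0.126). The log2 fold change was 1.21 without female replicate 3 and 2.19 without female replicate 2. The next gene to LIF on Sscrofa11.1 is OSM, another ligand of this family, which had no probe set named for it.

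IL6 varied more between animals of one sex than nearly any other probe set. It had log2 expression values of 9.995, 10.24 and 8.72 in males and 7.67, 11.50 and 7.57 in females. Female replicate 2 was the highest of all 6 animals, and the other females were the lowest. The within-sex SD was 1.69, in percentile 99.95 of all probe sets, whose median was 0.168. Means were 9.65 ± 0.82 in males and 8.91 ± 2.24 in females (SD, n = 3 each). The log2 fold change of 0.74 (standard error 1.03, 95% interval -1.70 to 3.17) was not called over all probe sets (adjusted p = 0.768 from limma) or with the CV filter (0.580). This interval holds both a large excess in males and a large excess in females, so a sex difference was not detectable with these animals. One female decided the value. Without female replicate 2 the log2 fold change was 2.03 (4.08-fold), and limma then called IL6 with the CV filter (adjusted p = 0.0243) but not over all probe sets (0.152). Without female replicate 3 it was 0.06.

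**Figure D2:**
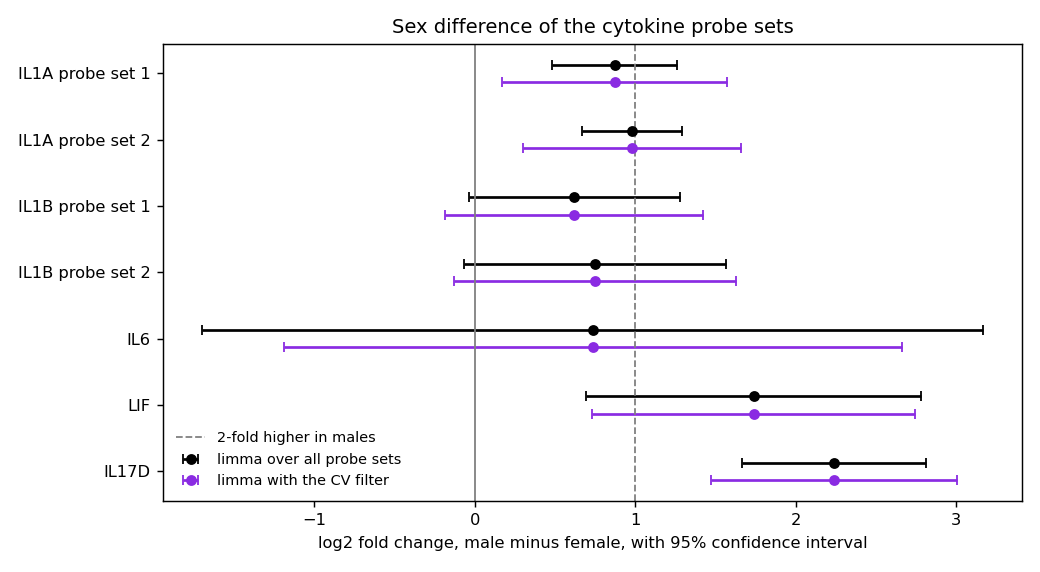
Log2 fold change (male minus female, horizontal axis) of each cytokine probe set with its 95% confidence interval from limma over all probe sets (black) and with the CV filter (purple). The dashed line marks 2-fold. The intervals of IL1A, LIF and IL17D lie above 0, and those of IL1B and IL6 include it.

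IL17D had the largest difference of the 7 probe sets. Its log2 expression values were 9.68, 8.98 and 9.28 in males and 6.88, 7.52 and 6.83 in females. The lowest male was 1.46 above the highest female, the widest gap of the 7. Means were 9.31 ± 0.36 in males and 7.07 ± 0.39 in females (SD, n = 3 each), a log2 fold change of 2.24 (standard error 0.24, 95% interval 1.67 to 2.81, 4.72-fold). IL17D rose over all probe sets (adjusted p = 0.0209 from limma) and with the CV filter (0.00465). The gene name of this probe set comes only from the list of significant genes of the study, which was made from these arrays. Its call, its rank and gap among the 7 and its calls with 1 array left out are therefore not independent evidence. With 1 array left out, it was called after the CV filter in 6 of 6 cases (limma adjusted p from 0.00304 to 0.0187). Over all probe sets the call was lost without male replicate 1 (adjusted p = 0.0856 from limma), male replicate 2 (0.0841), female replicate 1 (0.0735) or female replicate 3 (0.0886), while the log2 fold change stayed between 2.05 and 2.46.

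**Figure D3:**
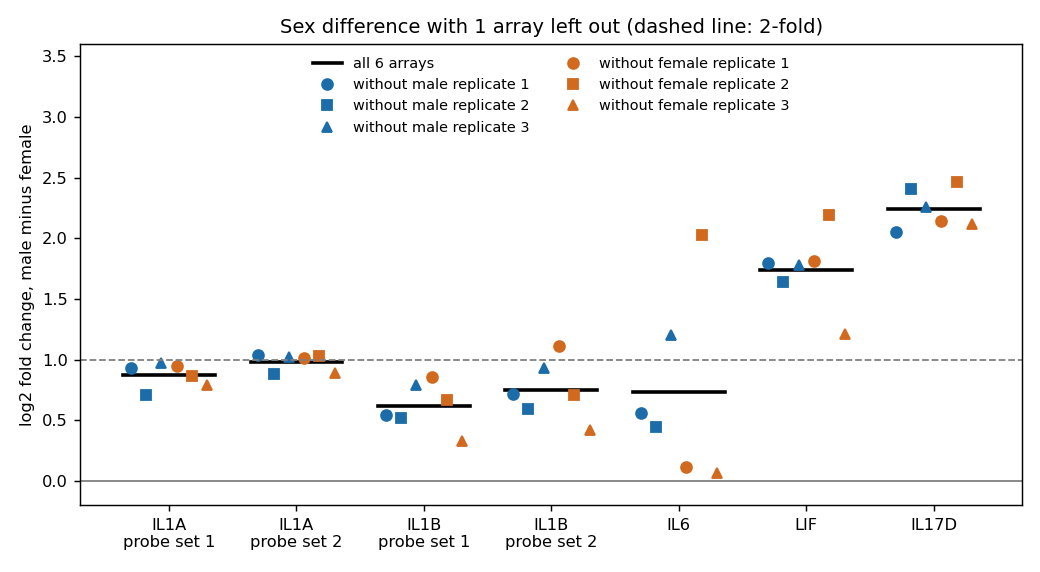
Log2 fold change (male minus female, vertical axis) of each cytokine probe set with all 6 arrays (black line) and with each male (blue) or female (orange) array left out. The values of IL17D stay between 2.05 and 2.46, while those of IL6 range from 0.06 to 2.03.

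The lowest value of all 7 probe sets was on female replicate 3, where 17.9% of all probe sets had their lowest value. The highest value was on male replicate 2 for 5 of the 7, against 9.39% of all probe sets. These were both probe sets of IL1A, both of IL1B and that of LIF. It was on female replicate 2 for IL6 and on male replicate 1 for IL17D. Probe sets of the same gene are not independent members, so these counts hold fewer genes than probe sets. The 7 thus share an animal at the low end, and a part of the sex difference of IL1B and LIF rests on it, as the values without female replicate 3 show. An exact permutation test of 3 against 3 arrays (two-sided) cannot go below p = 0.1. It gave 0.1 for both IL1A probe sets, LIF and IL17D, 0.2 for both IL1B probe sets and 0.8 for IL6.

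The remaining genes of these pathways went both ways. Of 98 genes in 8 lists of ligands, receptors, signal transduction and response genes, 44 had a probe set, 26 with a positive and 18 with a negative log2 fold change (median 0.04). None was called over all probe sets, where 0.304% of all were called in either direction. An unadjusted p under 0.05 from limma was found for 7, a limit that 16.9% of all probe sets passed. With the CV filter 1 was called, lower in males, where 2.99% of the kept probe sets were. This filter kept at most 3 genes of any list, so most of the 44 could not be called there. Among the ligands, IL18, an IL1 family cytokine that is also cut by caspase 1, was the 1 measured of 9 further IL1 family genes. It had 10.17, 10.56 and 10.18 in males and 9.61, 9.92 and 9.43 in females, without overlap, and its log2 fold change of 0.65 was not called (adjusted p = 0.159 from limma). None of 7 further IL6 family ligands had a probe set.

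The measured receptors did not pass in either direction. Of 9 receptors and decoys of IL1 and IL18, 4 were measured, 1 with a positive and 3 with a negative log2 fold change. IL1R1, the signaling receptor of IL1A and IL1B, had a log2 fold change of -0.27, IL18BP, which traps IL18, -0.33, the dampening receptor SIGIRR 0.45, and IL18R1, near the background, -0.25. Of 7 receptors of the IL6 family, 3 were measured. IL11RA, the receptor of IL11, had log2 expression values of 9.78, 10.37 and 10.64 in males and 11.01, 11.10 and 10.98 in females. Every male lay under every female, as for 11.4% of all probe sets, and the log2 fold change of -0.76 was not called (adjusted p = 0.171 from limma over all probe sets). IL27RA had 0.48 (adjusted p = 0.252) and IL6R, with a mean near the background, -0.13. The shared chain IL6ST and the LIF receptor LIFR had no probe set here.

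Signal transduction genes lay near 0 on average. Of 10 measured genes between the IL1 receptor and NF-κB, 7 had a positive log2 fold change (median 0.06), from CASP1, the enzyme that cuts IL1B, with 0.51 to NFKBIA, the inhibitor that NF-κB itself induces, with -0.21, and none was called. Of 7 measured genes of JAK and STAT3, 3 were positive and 4 negative (median -0.05). JAK2, a kinase bound to gp130 receptors, had 9.35, 9.64 and 9.69 in males and 10.18, 10.58 and 10.02 in females. The sexes did not overlap, but the log2 fold change of -0.70 was not called (adjusted p = 0.144 from limma), and that of its second probe set was -0.52. TYK2 was at the other end of this list with 0.10.

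**Figure D4:**
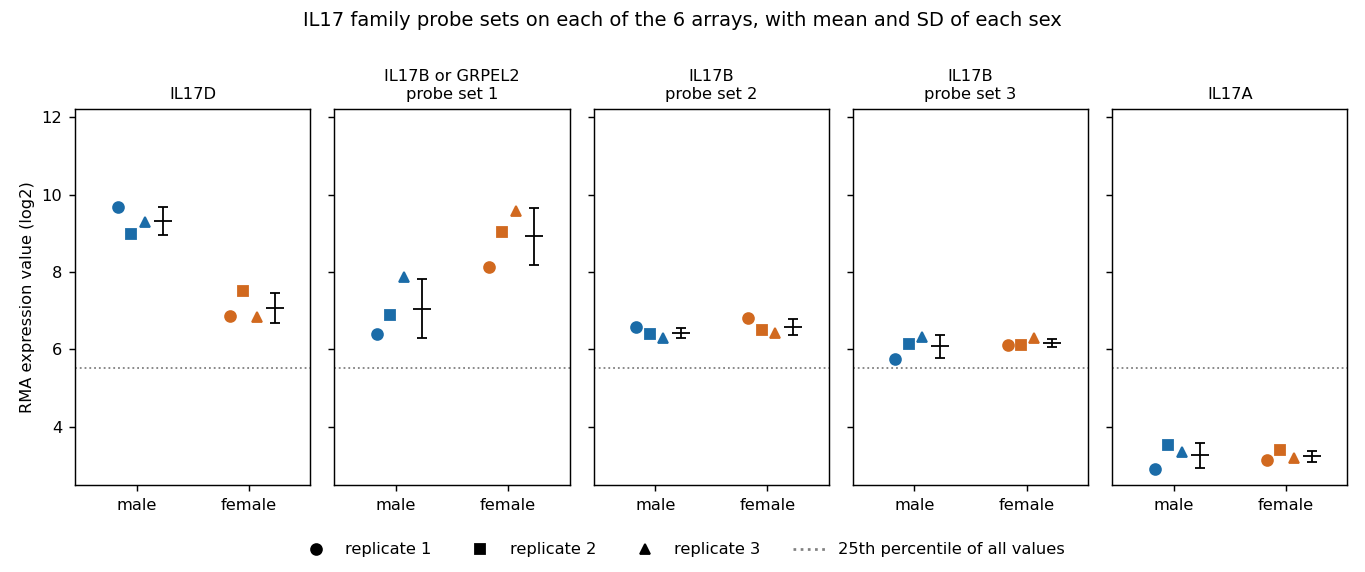
RMA expression values (log2, vertical axis) of the IL17 family probe sets on each male (blue) and female (orange) array, with bars for mean and SD within the sex and symbols for the replicate. IL17D is higher in males, the probe set named IL17B or GRPEL2 is lower in males, and 2 further IL17B probe sets and IL17A have overlapping values.

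In the IL17 family, a probe set that the array annotation names for IL17B went the other way from IL17D. It had log2 expression values of 6.39, 6.89 and 7.88 in males and 8.13, 9.03 and 9.58 in females, without overlap. Its log2 fold change of -1.87 (standard error 0.47) was called lower in males with the CV filter (adjusted p = 0.0421 from limma), where 2.99% of the kept probe sets were, but not over all probe sets (0.149). The study's list of significant genes names this probe set GRPEL2, a mitochondrial chaperone gene that lies next to IL17B on Sscrofa11.1, so which gene it reads is not settled. The 2 other IL17B probe sets had log2 fold changes of -0.15 and -0.09 and overlapped between the sexes. The call was lost without male replicate 1 (adjusted p = 0.118 from limma after this filter), male replicate 2 (0.0766), female replicate 2 (0.0605) or female replicate 3 (0.116). IL17A, the cytokine of T helper 17 cells, was near the background, at 3.26 ± 0.32 in males and 3.24 ± 0.14 in females (SD, n = 3 each). The adaptor TRAF3IP2 had 9.17, 9.04 and 9.04 in males and 8.73, 8.71 and 8.59 in females, with a log2 fold change of 0.41 that was not called (adjusted p = 0.143 from limma).

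Among the genes that respond to these cytokines, several were highest in the female with the highest IL6. Of 24 listed genes 16 were measured, 11 with a positive and 5 with a negative log2 fold change (median 0.07). None of the 16 was called over all probe sets, where 0.304% of all were. The CV filter kept only 3 of the 16, and none of these was called. ICAM1, a leukocyte adhesion molecule, had 0.57 and the chemokine CXCL2 -0.23 at the ends of the list. Of the 16, 7 were highest on female replicate 2, the animal with the highest IL6, where 16.4% of all probe sets were highest. The genes that follow were chosen after their values were seen. CCL2, a chemokine for monocytes, had 12.19, 12.56 and 12.08 in males and 12.24, 13.19 and 11.27 in females. SOCS3 had 6.14, 6.53 and 5.73 in males and 5.87, 6.90 and 5.85 in females. Female replicate 2 was the highest of the 6 animals for both genes, as it was for IL6. Set against the mean of the other 2 females, this animal was higher by 3.88 for IL6, 1.96 for the neutrophil chemokine CXCL8, 1.87 for the prostaglandin synthase PTGS2, 1.50 for NFKBIA, 1.43 for CCL2, 1.04 for SOCS3, 0.57 for STAT3 and 0.46 for CEBPD, all on the log2 scale. It was lower by 0.65 for SOCS1, another feedback inhibitor, 0.62 for the protease MMP3, 0.57 for CASP1 and 0.42 for FOS. Over the 44 measured pathway genes, it was higher for 30 and lower for 14 (median difference 0.18). Over all 23999 probe sets it was higher for 10845 and lower for 13152 (median difference -0.03). Of the other cytokines, LIF was higher by 1.36 and IL17D by 0.67 in that animal, and the IL1A and IL1B probe sets differed by -0.11 to 0.16.

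**Figure D5:**
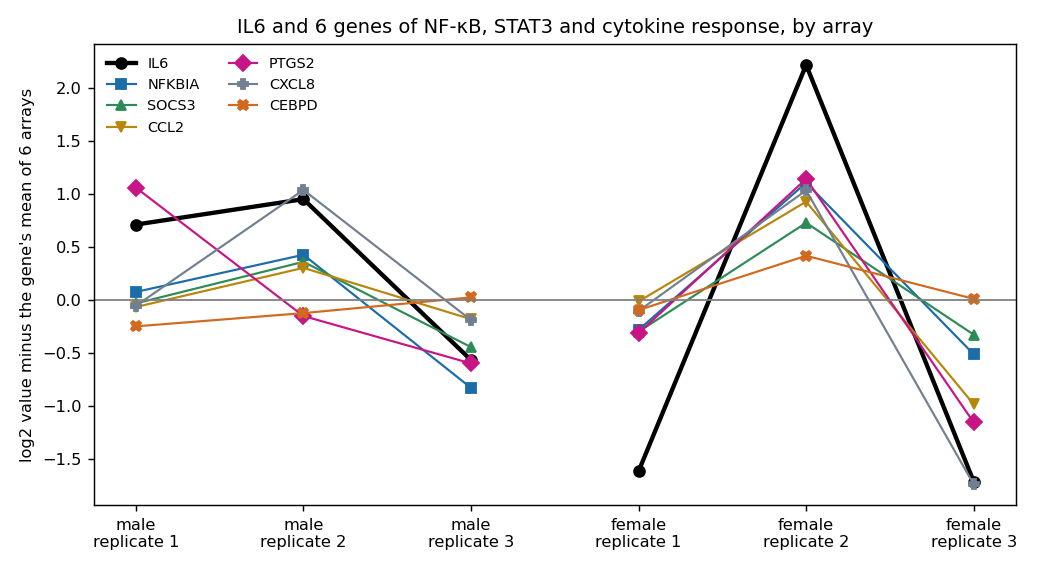
Log2 expression value minus the mean of the 6 arrays (vertical axis) of IL6 (black) and 6 genes of NF-κB, STAT3 and the cytokine response on each array, with lines joining the values of a gene within a sex. IL6 and CCL2, NFKBIA, SOCS3, PTGS2 and CEBPD are highest on female replicate 2, and CXCL8 is as high on male replicate 2 as there.

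Across the 6 arrays, the genes most like each cytokine were taken from 676 annotated probe sets with an SD of at least 0.5 and a mean above the background level. The values of r are descriptions over 6 arrays, and arrays of one sex share their sex difference, so r after centring each sex is given beside them. IL6 was most like VWF, the clotting factor of endothelial cells (r = 0.985, and 0.984 within the sexes), IER5 (0.981 and 0.991) and the syntaxin STX11 (0.970 and 0.985). VWF had 10.58, 10.90 and 9.68 in males and 9.27, 11.33 and 9.41 in females. It was thus highest in female replicate 2 and lowest in the other females, as IL6 was. VWF was the only 1 of the 11 endothelial markers that was highest there, while 9 were highest in male replicate 1. The further VWF probe sets did not follow IL6, with their highest values on female replicate 3 (6.62) and male replicate 2 (6.28). LIF was most like TRAM1, a protein of the endoplasmic reticulum channel (0.990 and 0.998), RGS5, a G protein regulator found in pericytes (0.984 and 0.973), and RARRES1 (0.980 and 0.933). RGS5 had 9.18, 10.20 and 9.13 in males and 6.86, 8.76 and 5.21 in females, with the same order among the females as LIF. IL1B, at its second probe set, was most like TNFSF10, a death ligand (0.982 and 0.969), and 2 leukocyte genes, the actin-binding CORO1A (0.980 and 0.997) and the lysosomal LAPTM5 (0.968 and 0.948). IL1A was most like the GTPase RRAD (0.990 and 0.943), the neuropeptide NPY (0.965 and 0.744) and C3H2orf40 (0.957 and 0.763). IL17D was most like the sterol regulator SREBF2 (0.984 and 0.755), the tubulin-binding TPPP3 (0.982 and 0.878) and the hormone STC1 (0.976 and 0.683). For IL17D, and for NPY and C3H2orf40 beside IL1A, r was at most 0.878 within the sexes, while it was above 0.93 for RRAD beside IL1A and for the genes named for LIF, IL6 and IL1B.

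Markers of cells that make or respond to these cytokines were set beside them. Of the 11 endothelial markers, none was called over all probe sets, where 0.304% of all were called in either direction. An unadjusted p under 0.05 from limma was found for 6, a limit that 16.9% of all probe sets passed. The CV filter kept 6, of which 2 were called, both higher in males, where 4.60% of all kept probe sets were. ICAM2, an adhesion molecule of endothelial cells, had 10.28, 9.92 and 9.14 in males and 8.31, 8.15 and 7.78 in females. ESAM, a junction protein of the same cells, had 10.18, 9.66 and 8.90 in males and 7.81, 8.42 and 7.72 in females. Both were separated by sex, as IL1A, LIF and IL17D were, but were highest in male replicate 1, where IL17D alone of the 7 cytokine probe sets was highest. The further ESAM probe sets had log2 fold changes of 1.56, separated by sex, and -0.26, with overlap, and neither was called. The 7 measured macrophage and monocyte markers summed to 10992 to 13892 in males and 9914 to 14796 in females on the linear scale, with 3 of 7 higher in males. The 6 lymphocyte markers summed to 424 to 794 in males and 350 to 975 in females. The 6 granulocyte and mast cell markers all had a higher mean in males, 3 of them near the background, and summed to 535 to 683 in males and 372 to 456 in females. The relation of these markers to the cytokine values was not tested, and the likeness to VWF, RGS5, CORO1A and LAPTM5 above is a description only.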

How the data were processed

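RNA of scraped aortic valve leaflets (400 ng per sample) was labeled and hybridized to 6 arrays, 3 of castrated males and 3 of females. The deposited table holds log2 values, made by the authors from the scanned arrays with RMA under R 2.12.0, and they were used as given. It has 24123 probe sets. The number of arrays limits the precision. The sources used here gave no genome build, so no coordinates are printed, and RefSeq (Sscrofa11.1) was used only for names and neighbors.

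The annotation lists 10267 probe sets other than controls, 10069 with 1 gene. The members, gene lists, tests and alternatives were chosen with earlier results of these data known. Male minus female was tested with limma 3.58.1 (lmFit and eBayes, no covariate) in R 4.3.3, with statmod 1.5.0, over the 23999 probe sets other than 124 controls, and over the 10% of all probe sets with the highest CV (at least 6.50%). The methods name a CV filter without its direction or share, and the supplement describes it as removing values too unlike between replicates, so this filter is a reading chosen here. The exact permutation tests used SciPy 1.17.1 and the figures matplotlib 3.10.9 in Python 3.11.15. The limma script was tested on simulated data. Named genes are all probe sets of the members, list genes called in either test, the measured gene with the largest positive and the largest negative log2 fold change of each pathway list among those above the 25th percentile, all measured receptors, and for each member the 3 genes with the highest r. Each list gene is represented by its probe set with the highest mean. Replicate numbers are shared by the sexes, but no source ties equal numbers to a litter or day, so the main tests did not pair the arrays. Deviations of equally numbered arrays correlated at -0.10, 0.01 and 0.27, and those of unequally numbered arrays at -0.22 to 0.21. With 3 arrays a sex these values cannot exclude a pairing. The alternatives left out each array, centred the arrays, added an intensity trend or the replicate block, dropped the 2-fold limit, removed low values, and changed the share or scale of the CV filter.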

Additional observations from a re-analysis of the deposited data

How the results depend on the processing

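The count of cytokine probe sets called over all probe sets was 1, and 0 to 2 with 1 array left out. It was 2 with no minimum fold, where the second IL1A probe set joined IL17D. With the CV filter it was 2, and 1 to 3 with 1 array left out. The other alternatives kept both counts within 1.5 times. No direction of a cytokine turned under any alternative. Over the whole array the 73 calls became 13 to 285 with 1 array left out, and the 183 calls with the CV filter became 56 to 391, with the lowest counts without male replicate 2 and male replicate 1, and both highest without male replicate 3. With the replicate block, 204 and 302 probe sets were called, and the number of called cytokine probe sets was 1 over all probe sets and 2 with the CV filter. That block joins arrays that, as far as the sources state, share only a number. Alternatives for the IL17B probe set were added after seeing the data, and with the block it was also called over all probe sets (adjusted p = 0.0159 from limma). With an array left out, the CV filter did not keep the first IL1A probe set in 1 of 6 cases and each IL1B probe set in 2 of 6, so those cases gave no value. With 3 animals a sex, an effect of 1 animal on IL6, LIF or IL1B cannot be averaged out, and LIF in female replicate 3 and IL17A in both sexes lie near the background, which limits the size of their differences.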
